A study of Mus musculus with 9 samples.

Results

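MAP kinase cascade genes were measured in a mouse B-cell lymphoma line after 2 h with an inhibitor of the BET bromodomain proteins. The set held every gene whose GENCODE M21 symbol begins with Map2k, Map3k, Map4k or Mapk followed by a digit and whose counts averaged at least 1 CPM (the gene's read count scaled to a common library total) over all 9 libraries. Of 50 genes with such a symbol, 37 met the level rule, among 43629 genes in the table. They comprised 5 genes of the MAP4K tier, 14 of the MAP3K tier, 6 MAP2K genes, 9 MAPK genes and 3 genes named after a MAP kinase whose products are not kinases of the cascade (Mapk1ip1, Mapk1ip1l and Mapk8ip3). The treated groups were RG6146 at 2.5 µM and JQ1 at 1 µM, each set against DMSO, the solvent of the compounds, with 3 libraries in every group. All 9 libraries came from Eµ-Myc clone 4242, grown in vitro, so every group carries the same Myc transgene under the Eµ enhancer of the immunoglobulin heavy chain locus and stands for a single tumour clone. The labels call the samples biological triplicates, and p-values here measure the spread between those cultures.

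MAP kinase cascades are relays of protein kinases in which a MAP3K phosphorylates a MAP2K and the MAP2K phosphorylates a MAPK. MAP4Ks act above the MAP3Ks, and the relays end in the ERK, JNK, p38 and ERK5 kinases, which phosphorylate transcription factors and further kinases. In B cells the ERK branch is engaged by the antigen receptor through RAS, and the JNK and p38 branches by cellular stress and by receptors of the TNF and Toll families. Transcript levels, as measured here, do not report the phosphorylation of these kinases.

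Both compounds shifted cascade transcripts in either direction, and the 5 genes whose calls with both compounds held under every alternative processing were Map2k1, Map2k3 and Mapk8, which rose, and Map3k9 and Map3k20, which fell. Map2k1 encodes MEK1, a kinase of the ERK branch (ENSMUSG00000004936, chr9:64185770-64253631, minus strand of mm10). Map2k3 encodes MKK3, a kinase of p38 (ENSMUSG00000018932, chr11:60932033-60952811, plus strand). Mapk8 encodes JNK1 (ENSMUSG00000021936, chr14:33377898-33447158, minus strand). Map3k9 encodes the mixed lineage kinase MLK1, which acts above JNK (ENSMUSG00000042724, chr12:81721010-81781175, minus strand). Map3k20 encodes ZAK, a kinase that responds to stalled ribosomes (ENSMUSG00000004085, chr2:72285637-72442610, plus strand). Their promoter windows are shown because these 5 genes carry the firmest differences, a choice made after their values were seen. Each runs 5′ to 3′ on the gene's strand from 250 bases before to 50 bases after the RefSeq start on GRCm38.p6, the assembly of mm10, and capitals mark the GC box GGGCGG or its complement CCGCCC.
Map2k1, chr9:64253556-64253855, minus strand: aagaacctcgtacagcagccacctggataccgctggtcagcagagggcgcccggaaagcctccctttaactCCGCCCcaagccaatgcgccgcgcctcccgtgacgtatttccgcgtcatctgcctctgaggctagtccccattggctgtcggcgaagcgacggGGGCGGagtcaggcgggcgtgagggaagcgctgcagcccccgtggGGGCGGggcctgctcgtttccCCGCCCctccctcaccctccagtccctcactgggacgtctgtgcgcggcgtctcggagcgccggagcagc
Map2k3, chr11:60931804-60932103, plus strand: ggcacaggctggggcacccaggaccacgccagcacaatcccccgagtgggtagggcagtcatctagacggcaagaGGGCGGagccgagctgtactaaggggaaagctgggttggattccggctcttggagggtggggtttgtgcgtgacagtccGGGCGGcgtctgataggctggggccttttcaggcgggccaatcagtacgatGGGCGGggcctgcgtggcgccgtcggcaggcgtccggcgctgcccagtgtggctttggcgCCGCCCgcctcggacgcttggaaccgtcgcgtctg
Mapk8, chr14:33447109-33447408, minus strand: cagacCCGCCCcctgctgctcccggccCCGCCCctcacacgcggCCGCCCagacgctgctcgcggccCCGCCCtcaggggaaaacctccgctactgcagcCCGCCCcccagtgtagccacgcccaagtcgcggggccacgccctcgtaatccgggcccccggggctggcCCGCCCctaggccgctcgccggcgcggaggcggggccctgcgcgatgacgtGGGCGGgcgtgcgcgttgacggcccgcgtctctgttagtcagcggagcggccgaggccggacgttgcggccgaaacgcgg
Map3k9, chr12:81781121-81781420, minus strand: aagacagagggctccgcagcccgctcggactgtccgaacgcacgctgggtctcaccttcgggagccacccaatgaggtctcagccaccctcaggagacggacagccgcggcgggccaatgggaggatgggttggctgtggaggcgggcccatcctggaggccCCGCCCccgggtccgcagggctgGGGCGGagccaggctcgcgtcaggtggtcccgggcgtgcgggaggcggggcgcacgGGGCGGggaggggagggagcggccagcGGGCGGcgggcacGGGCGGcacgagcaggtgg
Map3k20, chr2:72285387-72285686, plus strand: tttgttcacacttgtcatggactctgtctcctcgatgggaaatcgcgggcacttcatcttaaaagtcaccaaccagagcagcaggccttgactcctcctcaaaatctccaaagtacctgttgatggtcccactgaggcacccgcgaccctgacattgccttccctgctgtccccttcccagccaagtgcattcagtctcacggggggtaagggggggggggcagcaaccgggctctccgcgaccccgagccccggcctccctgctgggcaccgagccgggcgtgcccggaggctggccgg

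The Mapk8 window held 7 GC boxes, the Map3k9 window 5, and the Map2k1 and Map2k3 windows 4 each, whereas the Map3k20 window held none. GC boxes thus stood in the windows of genes that rose and of Map3k9, which fell. RefSeq windows were found for 31 of the 37 genes. A GC box on either strand stood in 24 of the 31 windows (77.4%) and in 35.7% of all 32851 mouse promoter windows of the same length. The E-box CACGTG stood in 2 of the 31 windows, against 7.15% of all windows, and the ETS motif CCGGAAG in 3, against 8.86%. The AP-1 motif TGANTCA stood in 1 window, against 7.81% of all windows. None of the 31 held the CRE TGACGTCA or the TATA box TATAAA, which stood in 1.79% and 13.6% of all windows. The palindromic NRF1 motif stood in 2 of the 31, against 0.971% of all. GC-rich windows were common in the set, with a median of 28 CpG dinucleotides and 66.67% GC, against 7 CpG dinucleotides and 52.67% GC over all windows. The 31 windows were 1 per gene, the one nearest the GENCODE start, in genes chosen for a minimum level. The set of all windows was not filtered by expression or reduced to 1 per gene, so these shares compare unlike sets. All 7 motifs were searched on both strands, and a match is a description of the letters only.

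The libraries held 3410161 to 5031717 gene counts. Levels below are CPM after TMM scaling, a correction for composition. QuantSeq yields about 1 read per transcript from its 3′ end, so CPM was not divided by length. The summed CPM of 12 B cell markers, without TMM, was 385 to 440 under RG6146, 364 to 389 under JQ1 and 703 to 810 under DMSO. Every library contained Cd79a and Cd79b, markers of the B lineage. Of the same list, Igll1 had 14 counts and Vpreb1 74 in all libraries together, and their values overlapped between the groups. The sum of 12 myeloid markers was 87.1 to 127 CPM under RG6146, 57.5 to 282 under JQ1 and 161 to 767 under DMSO, highest in DMSO replicate 2 and, among the JQ1 libraries, in replicate 2. The T and NK cell markers Trac and Ncr1 had no count in any library, and the 11 markers of that list summed to 5.79 to 7.59 CPM under RG6146, 3.03 to 6.48 under JQ1 and 8.18 to 12.9 under DMSO. Most of that sum was Cd2, with 199 counts in all libraries together, and Nkg7, with 61. Cd2 had 3.79 to 5.32 CPM under RG6146, 2.27 to 3.38 under JQ1 and 5.88 to 10.3 under DMSO. Of the myeloid markers, Cd14 and Adgre1 had 2 counts each in all libraries together, whereas S100a8 had 3045, Mpo 1632, S100a9 1327 and Csf1r 1068. The list did not move as one. S100a8 had 16.9 to 39.3 CPM under RG6146, 12.1 to 79.9 under JQ1 and 54.8 to 321 under DMSO. Csf1r had 22.5 to 34.1 CPM under RG6146, 26.8 to 33.1 under JQ1 and 21.2 to 23.8 under DMSO. The erythroid markers summed to 3.53 to 19.2 CPM across the 9 libraries, and the stromal and endothelial list, nearly all Vim and Pecam1, to 103 to 111 CPM under RG6146, 98.4 to 100.5 under JQ1 and 132 to 143 under DMSO, with Dcn at 0. The two-sided exact permutation p for the B cell sum was 0.1 for either compound against DMSO, the smallest that 3 against 3 libraries allow. For the myeloid sum it was 0.1 with RG6146 and 0.2 with JQ1. The part of these markers in the results below was not tested. In RNA from whole cultures, fewer cells of a type and less RNA per cell cannot be told apart.

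Every one of the 37 genes passed the count filter, among 11002 tested genes. The set's median level was 19.8 CPM and that of all tested genes 20.1 CPM. Of the genes just above the level rule, Map3k13 averaged 1.76 CPM and Map4k3 2.69 CPM over the 9 libraries before TMM. Just below it lay Map2k3os, an antisense gene, at 0.664 CPM, and Map3k8, the TPL2 kinase, at 0.413 CPM. Of the 13 genes left out, Mapk8ip1, Map3k6, Map3k19 and Mapk10 had 6, 5, 5 and 3 counts in all 9 libraries together. Map2k6, which encodes the p38 kinase MKK6, had 1 count, as had Mapk13, which encodes p38δ. The remaining 5 (Map3k21, Mapk15, Mapk8ip2, Map3k7cl and Mapk4) had no count.

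With RG6146, 14 of the 37 cascade genes were called at an adjusted p below 0.05 by edgeR's quasi-likelihood test, 10 higher and 4 lower than in DMSO (37.8%). Over all tested genes 26.0% were called, 12.5% higher and 13.5% lower. With JQ1, 21 of the 37 were called, 15 higher and 6 lower (56.8%), against 28.9% of all tested genes, 13.6% higher and 15.4% lower. The median log2 fold change of the set was 0.15 with RG6146 and 0.10 with JQ1, and that of all tested genes was 0.0086 and 0.0047, each against DMSO. The median of all tested genes used edgeR's estimates with a prior count, which draws them towards 0. That of the set used estimates without it, so the measures differ slightly. With RG6146 all 3 libraries lay above all 3 DMSO libraries for 12 of the 37 genes and below them for 8. Among all tested genes 40.9% had no overlap, 20.1% above and 20.9% below. With JQ1 this held for 15 above and 7 below, and for 42.6% of all tested genes, 20.6% above and 22.0% below. Both compounds were compared with the same 3 DMSO libraries, so their counts are not independent of each other.

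**Figure D1:**
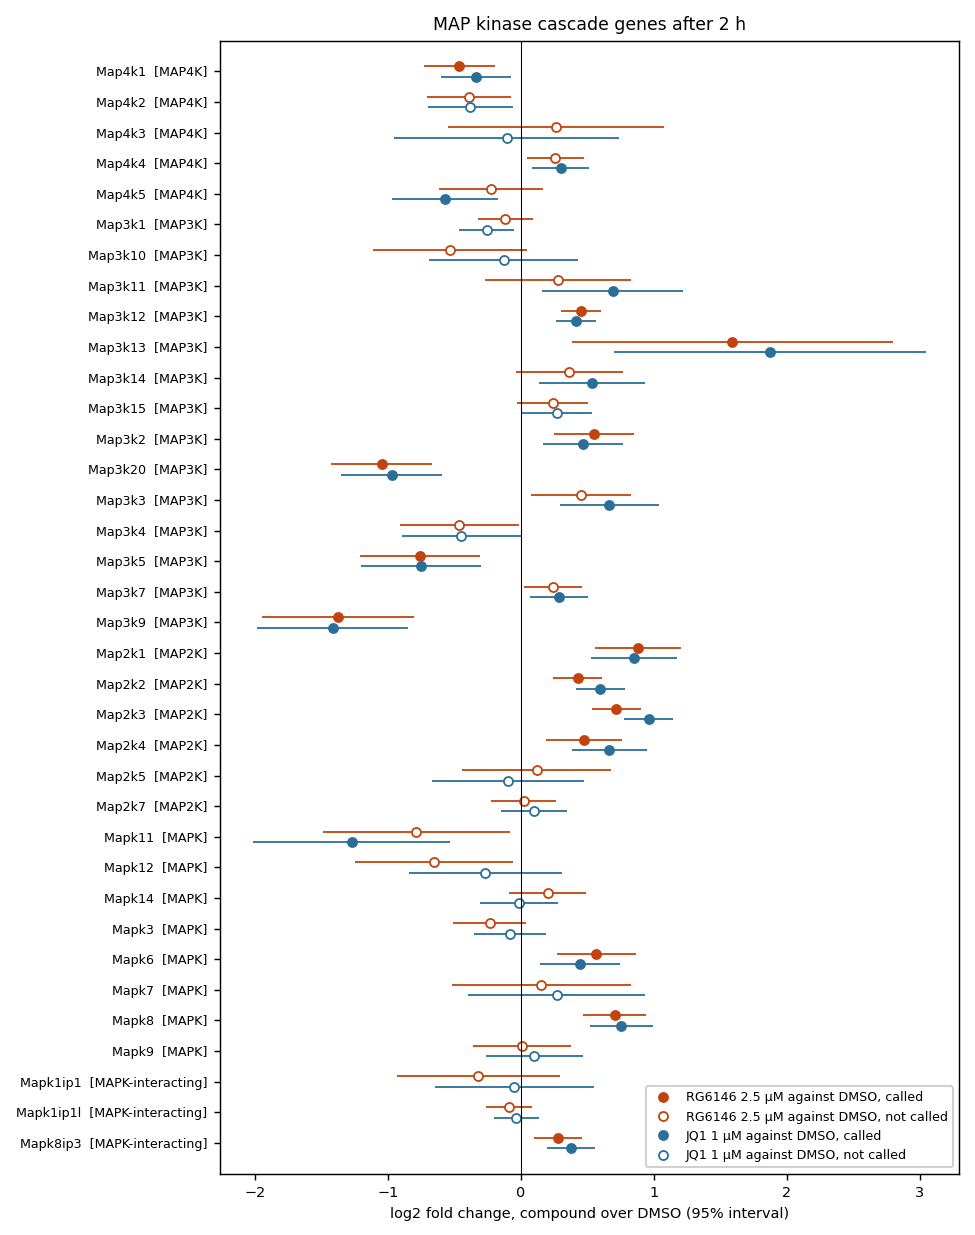
Log2 fold change of 36 of the 37 cascade genes with RG6146 and with JQ1 over DMSO (x axis, points with 95% intervals), ordered by tier down the page, with filled points for an adjusted p below 0.05. Map2k1, Map2k3, Map2k4 and Mapk8 lie right of 0 with both compounds, and Map3k9, Map3k20 and Map3k5 left of it.

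With 1 library left out, 9 to 15 of the 37 genes were called with RG6146 and 13 to 21 with JQ1. The RG6146 count was 9 without DMSO replicate 3 and 10 without RG6146 replicate 1. The JQ1 count was 13 without JQ1 replicate 1, 14 without JQ1 replicate 3 and 14 without DMSO replicate 1. DESeq2, a second count test, called 11 with RG6146 (7 higher, 4 lower) and 10 with JQ1 (7 higher, 3 lower). Among all 11002 tested genes DESeq2 called 1902 with RG6146 and 2147 with JQ1, where edgeR called 2863 and 3184. Without DMSO replicate 2 and JQ1 replicate 2, the libraries with the most myeloid transcripts of their groups, 13 were called with RG6146 (9 higher, 4 lower) and 16 with JQ1 (13 higher, 3 lower). Scaling by library size alone moved the median of all tested genes to -0.10 with RG6146 and -0.13 with JQ1, and gave 7 higher and 5 lower cascade genes with RG6146 and 9 and 9 with JQ1. Scaling by the ERCC spike-ins left 3 higher and 2 lower with RG6146 and 5 higher and 4 lower with JQ1. With ERCC scaling and the replicate number as a block, 9 rose and 4 fell with RG6146 and 11 rose and 6 fell with JQ1.

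In the MAP4K tier, 1 of 5 genes fell and none rose with RG6146, while with JQ1 1 rose and 2 fell. Among all tested genes 26.0% were called with RG6146 and 28.9% with JQ1, so 1 gene of 5 is near that background. Map4k1 encodes HPK1, a kinase of blood cells that restrains antigen receptor signalling. Its log2 fold change was -0.46 ± 0.13 (standard error) with RG6146 (adjusted p = 0.0106) and -0.34 ± 0.13 with JQ1 (adjusted p = 0.0483), and the RG6146 libraries lay below the DMSO libraries while 1 JQ1 library, replicate 1, reached the lowest DMSO value. Leaving out RG6146 replicate 1 or DMSO replicate 3 ended the RG6146 call (adjusted p up to 0.0747, and between 0.00157 and 0.307 over all alternatives). Any of 6 libraries, RG6146 replicates 1 and 2, JQ1 replicates 2 and 3 and DMSO replicates 2 and 3, ended the JQ1 call (adjusted p up to 0.253, and between 0.00669 and 0.385 over all alternatives).

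Map4k5, a kinase related to the germinal centre kinase, fell by 0.57 ± 0.19 on the log2 scale with JQ1 (adjusted p = 0.0315), and its value with RG6146 was -0.23 ± 0.19 (adjusted p = 0.407). Leaving out JQ1 replicate 1, JQ1 replicate 3 or DMSO replicate 1 ended that call (adjusted p up to 0.147, between 0.0101 and 0.224 over all alternatives). Map4k4, which encodes HGK, a kinase above JNK, rose by 0.30 ± 0.10 on the log2 scale with JQ1 (adjusted p = 0.037), against 0.26 ± 0.10 with RG6146 (adjusted p = 0.0734). Here JQ1 replicates 1 and 3 and DMSO replicates 1 and 2 each decided the JQ1 call (adjusted p up to 0.146, between 0.0127 and 0.579 over all alternatives). The other 2 genes of the tier, Map4k2 and Map4k3, were called with neither compound. Map4k2, which encodes the germinal centre kinase itself, was still below all DMSO libraries in the 3 RG6146 and the 3 JQ1 libraries, with log2 fold changes of -0.39 ± 0.15 (adjusted p = 0.0652) and -0.38 ± 0.15 (adjusted p = 0.067).

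In the MAP3K tier 6 of 14 genes were called with RG6146 (3 higher, 3 lower, 42.9%) and 10 with JQ1 (7 higher, 3 lower, 71.4%). Over all tested genes the shares were 26.0% and 28.9%. The rises with either compound include Map3k13 and Map3k12, both described below. Map3k13 passed the count filter through its treated libraries, and Map3k12 could not be separated from a neighbouring gene. The shares of the tier are thus no independent support. DESeq2 called 2 higher and 3 lower with RG6146 and 1 higher and 3 lower with JQ1. ERCC scaling gave 0 higher and 2 lower with RG6146, and 1 higher and 3 lower with JQ1. ERCC scaling with the replicate block gave 2 higher and 3 lower with RG6146, and 4 higher and 3 lower with JQ1. The tier held the largest fall of the set, that of Map3k9. Map3k9 had 2.96, 4.30 and 4.54 CPM under RG6146, 4.42, 3.33 and 3.66 CPM under JQ1 and 10.3, 7.39 and 12.7 CPM under DMSO, in the order of the replicates. All 6 treated libraries lay below the lowest DMSO library, and the RG6146 and JQ1 values overlapped. The fall was 2.60-fold with RG6146 (log2 fold change -1.38 ± 0.27, adjusted p = 9.8e-04) and 2.67-fold with JQ1 (-1.42 ± 0.27, adjusted p = 7.2e-04).

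Map3k20 had 10.9, 11.4 and 7.27 CPM under RG6146, 9.26, 10.9 and 11.0 CPM under JQ1 and 19.4, 22.5 and 19.4 CPM under DMSO. Again no treated library reached a DMSO value, and RG6146 replicate 3 was the lowest of all 9. The transcript fell 2.07-fold with RG6146 (log2 fold change -1.05 ± 0.18, adjusted p = 3.2e-04) and 1.96-fold with JQ1 (-0.97 ± 0.18, adjusted p = 5.4e-04).

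Map3k5 encodes ASK1, the oxidative stress kinase that is held inactive by thioredoxin. It had 9.81, 13.7 and 12.04 CPM under RG6146, 16.0, 11.2 and 8.10 CPM under JQ1 and 19.6, 17.1 and 23.3 CPM under DMSO. The groups did not overlap with DMSO, although JQ1 replicate 1 came close to DMSO replicate 2. Its log2 fold change was -0.76 ± 0.21 with RG6146 (adjusted p = 0.0142) and -0.75 ± 0.21 with JQ1 (adjusted p = 0.0139). Both calls were near the threshold: RG6146 replicate 1 or DMSO replicate 3 ended the RG6146 call (adjusted p up to 0.0775, between 4.2e-04 and 0.0827 over all alternatives), and JQ1 replicate 2, JQ1 replicate 3 or DMSO replicate 3 the JQ1 call (adjusted p up to 0.0737, between 5.7e-04 and 0.0737).

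Several MAP3K genes rose. Map3k2 encodes MEKK2, which acts above ERK5 and JNK, and rose by 0.55 ± 0.14 on the log2 scale with RG6146 (adjusted p = 0.0081) and 0.46 ± 0.14 with JQ1 (adjusted p = 0.0209), with no overlap with DMSO. Leaving out JQ1 replicate 2 or DMSO replicate 2 ended the JQ1 call (adjusted p up to 0.097, between 0.0107 and 0.32 over all alternatives). Its relative Map3k3, which encodes MEKK3, had 15.1, 13.2 and 14.5 CPM under RG6146, 18.5, 14.8 and 16.2 CPM under JQ1 and 12.4, 10.2 and 8.39 CPM under DMSO. All treated libraries lay above all DMSO libraries, yet the call was reached with JQ1 only. The log2 fold change was 0.45 ± 0.18 with RG6146 (adjusted p = 0.0718) and 0.66 ± 0.18 with JQ1 (adjusted p = 0.00849), a call that was lost without JQ1 replicate 1 (adjusted p = 0.0501, between 0.00372 and 0.127 over all alternatives). Without DMSO replicate 1, Map3k3 was called with RG6146 as well.

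Map3k13, which encodes the leucine zipper kinase LZK, had the lowest tag count of the set. It had 2.51, 1.52 and 2.27 CPM under RG6146, 3.16, 1.90 and 2.61 CPM under JQ1 and 0.376, 1.42 and 0.479 CPM under DMSO. These levels rest on 11, 6 and 10 reads, 15, 8 and 10 reads and 2, 5 and 2 reads in the same order, and no DMSO library reached 10 reads, so the gene passed the count filter through its treated libraries. At such counts, passing through the treated libraries favours a difference from DMSO, so the test of Map3k13 is no independent support. Without it, 9 of 36 cascade genes rose and 4 fell with RG6146, and 14 rose and 6 fell with JQ1. The treated libraries lay above the DMSO libraries, narrowly so for RG6146 replicate 2 and DMSO replicate 2. The log2 fold change was 1.59 ± 0.57 with RG6146 (adjusted p = 0.0499) and 1.87 ± 0.56 with JQ1 (adjusted p = 0.017), and without DMSO replicate 2 it was 2.32 and 2.61. The RG6146 call was lost in 15 of 18 alternatives (adjusted p between 0.0203 and 0.196), among them the removal of any library but DMSO replicate 2. The JQ1 call was lost without JQ1 replicate 1, DMSO replicate 1 or DMSO replicate 3 (adjusted p up to 0.0957, between 0.0082 and 0.0957 over all alternatives).

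Map3k11, which encodes the mixed lineage kinase MLK3, had 5.02, 6.83 and 5.45 CPM under RG6146, 7.997, 8.57 and 6.27 CPM under JQ1 and 4.89, 3.70 and 5.51 CPM under DMSO. Its JQ1 libraries lay above its DMSO libraries, and its RG6146 libraries overlapped with them. The log2 fold change was 0.28 ± 0.26 with RG6146 (adjusted p = 0.478) and 0.69 ± 0.25 with JQ1 (adjusted p = 0.0494), a call lost in 16 of 19 alternatives (adjusted p between 0.0429 and 0.291) and without any 1 library but JQ1 replicate 3. Map3k14, the NF-κB inducing kinase NIK, rose by 0.53 ± 0.19 on the log2 scale with JQ1 (adjusted p = 0.0429), against 0.36 ± 0.19 with RG6146 (adjusted p = 0.182). Map3k7, the TAK1 kinase of the TNF, interleukin-1 and Toll pathways, rose by 0.28 ± 0.10 with JQ1 (adjusted p = 0.0477), against 0.24 ± 0.10 with RG6146 (adjusted p = 0.0994). The JQ1 calls were lost in 13 of 20 alternatives for Map3k14 (adjusted p between 0.0173 and 0.321) and in 15 of 20 for Map3k7 (between 0.0316 and 0.624). For Map3k14 the libraries that decided it were RG6146 replicate 1, JQ1 replicates 1 and 3 and each DMSO replicate, and for Map3k7 RG6146 replicate 1, each JQ1 replicate and DMSO replicates 1 and 3.

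The highest tag count of the set, that of Map3k12, could not be separated from a neighbouring gene. Map3k12, which encodes the dual leucine zipper kinase DLK, is known chiefly from neurons. It lies on the minus strand of chromosome 15 and its exons overlap those of Pcbp2, an RNA-binding protein gene on the plus strand, by up to 1573 bases. Map3k12 had 406, 412 and 435 CPM under RG6146, 390, 402 and 428 CPM under JQ1 and 326, 301 and 289 CPM under DMSO. Its counts were 91.0% to 93.3% of those of Pcbp2 in every library, and its log2 fold changes, 0.45 ± 0.07 with RG6146 (adjusted p = 1.6e-04) and 0.41 ± 0.07 with JQ1 (adjusted p = 3.3e-04), lay beside 0.44 ± 0.07 and 0.40 ± 0.07 for Pcbp2. The strand setting of the counting is not given in the sources used here, so the reads of the pair may be the same ones.

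Map3k15, which encodes ASK3, a relative of ASK1, overlaps Pdha1 on the opposite strand by 425 bases, and its counts were 28.7% to 36.0% of those of Pdha1. It was called with neither compound (log2 fold change 0.24 ± 0.13 with RG6146 and 0.27 ± 0.13 with JQ1). Without Map3k12 and Map3k15, 9 genes were higher and 4 lower of 35 with RG6146, and 14 higher and 6 lower with JQ1. The other MAP3K genes, Map3k1, Map3k4 and Map3k10, were called with neither compound, with log2 fold changes from -0.53 for Map3k10 with RG6146 to -0.12 for Map3k1 with RG6146.

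**Figure D2:**
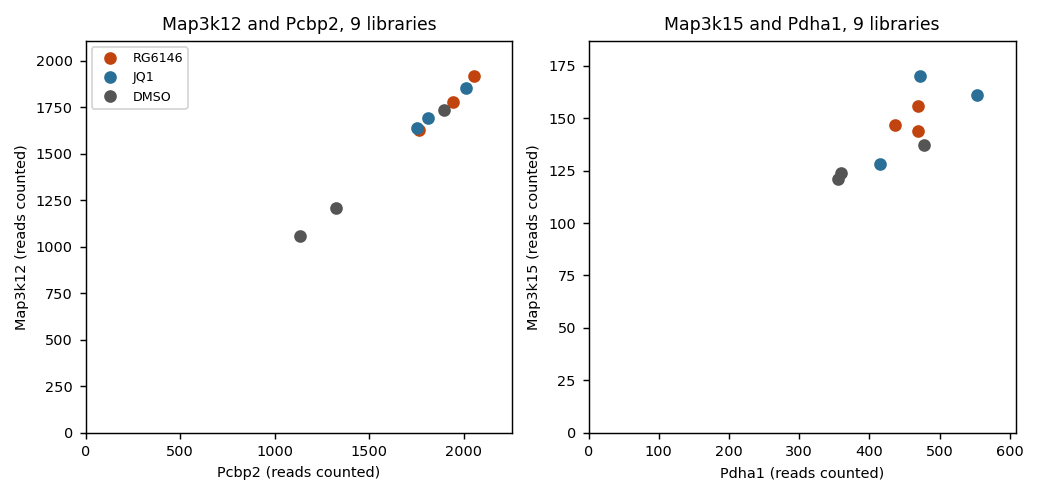
Reads counted for Map3k12 against those for Pcbp2 (left) and for Map3k15 against those for Pdha1 (right), each point 1 of the 9 libraries coloured by group, on linear axes from 0. The Map3k12 points lie on a line, at 91.0% to 93.3% of the Pcbp2 count, while the Map3k15 points spread between 28.7% and 36.0% of the Pdha1 count.

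In the MAP2K tier 4 of 6 genes rose with either compound and none fell, where 12.5% of all tested genes rose with RG6146 and 13.6% with JQ1. Scaling by library size alone left 3 of these rises with RG6146 and 4 with JQ1, and scaling by the ERCC spike-ins left 2 and 3, with no fall in either. The medians were 0.48 and 0.63 with ERCC scaling, against 0.45 and 0.63 as reported, and ERCC scaling with the replicate block gave 4 rises with either compound.

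Map2k3 had the smallest adjusted p of the set. It had 136, 141 and 156 CPM under RG6146, 175, 171 and 166 CPM under JQ1 and 78.2, 94.4 and 90.9 CPM under DMSO. All treated libraries exceeded all DMSO libraries, and the 3 RG6146 libraries lay below the 3 JQ1 libraries. The rise was 1.64-fold with RG6146 (log2 fold change 0.72 ± 0.09, adjusted p = 9.1e-06) and 1.94-fold with JQ1 (0.96 ± 0.09, adjusted p = 3.3e-07).

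Map2k1 had 35.8, 32.6 and 25.7 CPM under RG6146, 27.4, 36.9 and 28.0 CPM under JQ1 and 16.4, 17.3 and 17.5 CPM under DMSO. The DMSO libraries were close together and well below the treated ones, which overlapped with each other. The level rose 1.84-fold with RG6146 (log2 fold change 0.88 ± 0.15, adjusted p = 3.4e-04) and 1.80-fold with JQ1 (0.85 ± 0.15, adjusted p = 4.2e-04). Map2k2 encodes MEK2, the other MEK of the ERK branch, and had 105, 112 and 100.2 CPM under RG6146, 118, 126 and 115 CPM under JQ1 and 72.8, 78.5 and 85.6 CPM under DMSO. Its groups were in the order JQ1, RG6146 and DMSO with no overlap. It rose 1.34-fold with RG6146 (log2 fold change 0.43 ± 0.09, adjusted p = 0.00141) and 1.51-fold with JQ1 (0.60 ± 0.09, adjusted p = 5.7e-05).

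Map2k4 encodes MKK4, a kinase of JNK. It had 37.4, 35.4 and 30.4 CPM under RG6146, 37.2, 36.4 and 44.4 CPM under JQ1 and 29.2, 23.3 and 21.6 CPM under DMSO. The treated libraries lay above the DMSO libraries, narrowly between RG6146 replicate 3 and DMSO replicate 1. Map2k4 rose by a log2 fold change of 0.47 ± 0.14 with RG6146 (adjusted p = 0.0152) and 0.66 ± 0.13 with JQ1 (adjusted p = 0.00118). Leaving out RG6146 replicate 1, DMSO replicate 2 or DMSO replicate 3 ended the RG6146 call (adjusted p up to 0.0741, between 0.0039 and 0.217 over all alternatives), and the JQ1 call held in all 20 alternatives.

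The remaining MAP2K genes were called with neither compound. Map2k7, which encodes MKK7, the other JNK kinase, averaged 43.5 ± 5.05 CPM under RG6146, 45.9 ± 5.76 CPM under JQ1 and 43.0 ± 1.96 CPM under DMSO (SD, n = 3 each), and its log2 fold changes were 0.02 ± 0.12 and 0.10 ± 0.12. Map2k5, which encodes MEK5, the kinase of ERK5, had log2 fold changes of 0.12 ± 0.27 with RG6146 and -0.10 ± 0.27 with JQ1. For Map2k7 the 95% interval ran from -0.23 to 0.27 with RG6146 and from -0.15 to 0.34 with JQ1. For Map2k5 it reached 0.68 with RG6146 and -0.67 with JQ1, so a change of this size is not excluded.

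**Figure D3:**
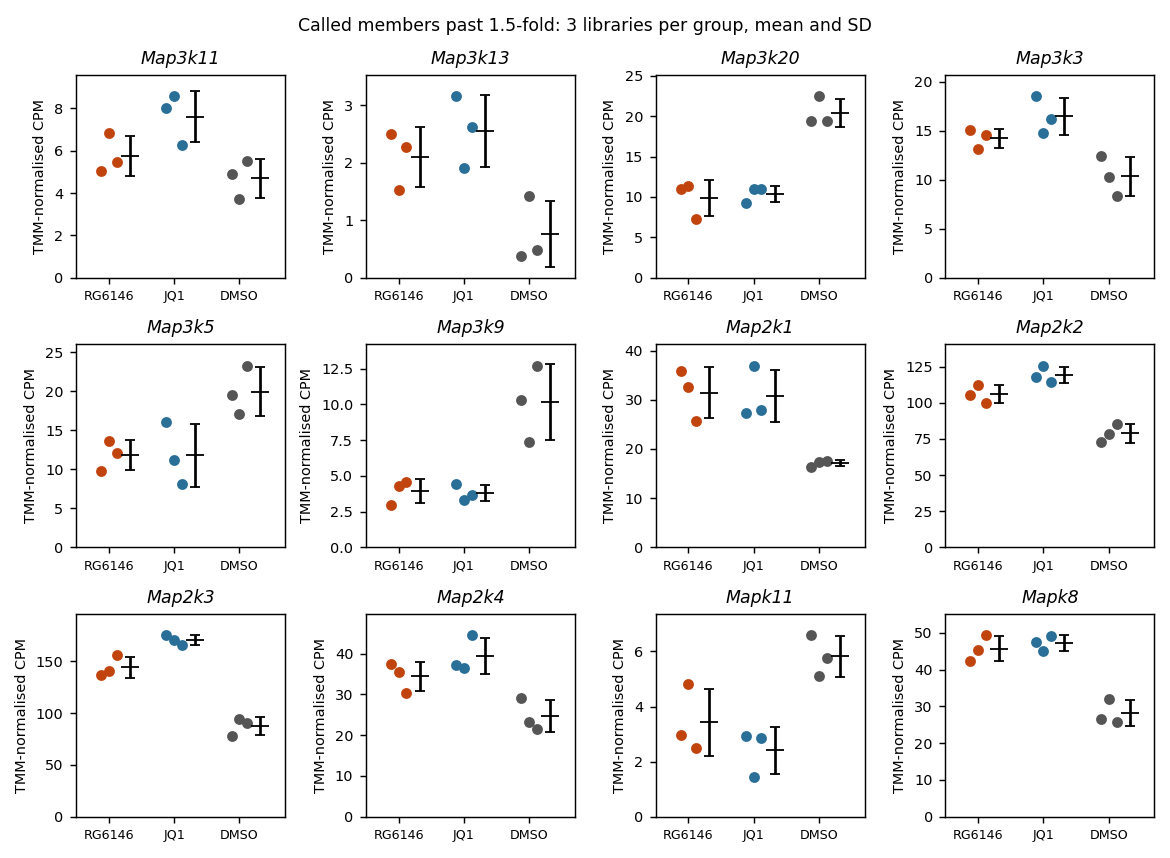
TMM-normalised CPM in every library of the 12 cascade genes called with a change past 1.5-fold with either compound, 1 panel per gene, with RG6146, JQ1 and DMSO from left to right, points for libraries and bars for the mean ± SD of 3. Map2k3, Map2k1 and Mapk8 lie higher in all 6 treated libraries than in DMSO, and Map3k9 and Map3k20 lower.

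Among the 9 MAPK genes, 2 rose with either compound, and 1 fell with JQ1. The shares called, 22.2% with RG6146 and 33.3% with JQ1, are near those of all tested genes. Mapk8 had 42.4, 45.3 and 49.3 CPM under RG6146, 47.6, 44.98 and 49.1 CPM under JQ1 and 26.5, 32.1 and 25.7 CPM under DMSO. Every treated library lay above every DMSO library, and the compounds overlapped. The level rose 1.63-fold with RG6146 (log2 fold change 0.71 ± 0.11, adjusted p = 1.6e-04) and 1.69-fold with JQ1 (0.75 ± 0.11, adjusted p = 7.3e-05). Mapk9, which encodes JNK2, had 15.7, 21.5 and 14.1 CPM under RG6146, 21.7, 15.9 and 16.7 CPM under JQ1 and 16.6, 17.3 and 17.02 CPM under DMSO. Its groups overlapped fully, with log2 fold changes of 0.01 ± 0.18 (95% interval -0.36 to 0.38) with RG6146 and 0.10 ± 0.17 (-0.27 to 0.47) with JQ1. Mapk10, the JNK3 gene, was below the level rule.

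Mapk6 encodes ERK3, an atypical MAP kinase, and was the other gene that rose. It averaged 35.55 ± 5.48 CPM under RG6146, 32.7 ± 5.096 CPM under JQ1 and 24.1 ± 1.98 CPM under DMSO (SD, n = 3 each), with treated libraries above DMSO libraries. On the log2 scale it rose by 0.57 ± 0.14 with RG6146 (adjusted p = 0.0065) and 0.45 ± 0.14 with JQ1 (adjusted p = 0.0257). JQ1 replicates 1 and 3 and DMSO replicates 1 and 2 each decided the JQ1 call (adjusted p up to 0.109, between 0.0064 and 0.329 over all alternatives).

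Mapk3, which encodes ERK1, was called with neither compound. It had 33.3, 36.7 and 38.4 CPM under RG6146, 40.6, 45.5 and 34.2 CPM under JQ1 and 36.3, 49.8 and 42.2 CPM under DMSO. Its groups overlapped, and its log2 fold changes were -0.24 ± 0.13 with RG6146 (95% interval -0.51 to 0.04) and -0.08 ± 0.13 with JQ1 (-0.36 to 0.19). Mapk7, which encodes ERK5, had log2 fold changes of 0.15 ± 0.32 and 0.27 ± 0.32, with 2.74 to 5.82 CPM across the 9 libraries.

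Among the p38 genes a single call was made. Mapk14, which encodes p38α, had 23.3, 20.5 and 21.4 CPM under RG6146, 18.9, 18.3 and 18.8 CPM under JQ1 and 20.7, 19.3 and 16.5 CPM under DMSO. Its RG6146 libraries lay above its JQ1 libraries, and both groups overlapped with DMSO (log2 fold change 0.20 ± 0.14 with RG6146 and -0.01 ± 0.14 with JQ1). Mapk11, which encodes p38β, had 2.96, 4.81 and 2.50 CPM under RG6146, 2.95, 1.43 and 2.88 CPM under JQ1 and 6.58, 5.12 and 5.75 CPM under DMSO. The treated libraries lay below the DMSO libraries, with RG6146 replicate 2 close to DMSO replicate 2. It differed from DMSO by a log2 fold change of -0.79 ± 0.33 with RG6146 (adjusted p = 0.0936) and -1.28 ± 0.35 with JQ1 (adjusted p = 0.0108). The JQ1 call was lost without DMSO replicate 2 and JQ1 replicate 2 together and by DESeq2 (adjusted p between 0.00386 and 0.0582 over all alternatives), and the RG6146 difference was called without RG6146 replicate 2. Mapk12, which encodes p38γ, had log2 fold changes of -0.66 ± 0.28 with RG6146 (adjusted p = 0.0989) and -0.27 ± 0.27 with JQ1 (adjusted p = 0.505), and was called with RG6146 only without RG6146 replicate 2.

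Of the 3 genes named after a MAP kinase, Mapk8ip3 rose with either compound. It encodes JIP3, a scaffold that ties JNK to the motor protein kinesin. It averaged 68.3 ± 1.86 CPM under RG6146, 73.1 ± 1.86 CPM under JQ1 and 56.4 ± 0.739 CPM under DMSO (SD, n = 3 each), without overlap between groups. The log2 fold change was 0.28 ± 0.09 with RG6146 (adjusted p = 0.023) and 0.37 ± 0.09 with JQ1 (adjusted p = 0.00291). The RG6146 call was lost without RG6146 replicate 2, RG6146 replicate 3, DMSO replicate 1 or DMSO replicate 3 (adjusted p up to 0.0701, between 0.0133 and 0.539 over all alternatives). Exons of Mapk8ip3 overlap those of Mrps34 by 971 bases on the opposite strand and those of Eme2 by 531 bases on the same strand. The annotated 3′ end of Spsb3, on the opposite strand, lies 1 base from that of Mapk8ip3. Some of its reads may thus belong to these neighbours, which was not tested. With RG6146 and JQ1 the log2 fold changes were 0.19 and 0.35 for Spsb3, 0.15 and 0.23 for Eme2, and 0.01 and -0.03 for Mrps34, none of them called. Mapk1ip1l averaged 145 ± 6.12 CPM under RG6146, 150.2 ± 14.2 CPM under JQ1 and 154 ± 3.49 CPM under DMSO (SD, n = 3 each) and was called with neither compound, and the same held for Mapk1ip1.

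The RG6146 and JQ1 libraries were also compared directly, at the doses used, which differ (2.5 µM and 1 µM). None of the 37 cascade genes was called by edgeR or by DESeq2, and over all tested genes 0.00909% were called by edgeR, 1 gene, and 1 by DESeq2. At an unadjusted p below 0.05 edgeR gave 1 cascade gene, Map2k3, and 427 genes in all. For Map2k3 the log2 difference, RG6146 over JQ1, was -0.24 ± 0.09 (unadjusted p = 0.0119, adjusted p = 0.999). The estimates ran from -0.41 for Map3k11 to 0.49 for Mapk11, with a median of -0.05 and a median half-width of the 95% interval of 0.31. Map2k1 differed by 0.03 (95% interval -0.28 to 0.34), Mapk8 by -0.05 (-0.28 to 0.18), Map3k20 by -0.08 (-0.48 to 0.33) and Map3k9 by 0.04 (-0.60 to 0.68). The RG6146 libraries lay above all JQ1 libraries for Map3k1 and Mapk14 and below them for Map2k2, Map2k3 and Mapk8ip3, 5 of 37 genes, against 9.93% of all tested genes without overlap, 5.39% above and 4.54% below. An adjusted p above the threshold does not show that the compounds act alike on these genes, and the intervals give the differences that remain possible.

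**Figure D4:**
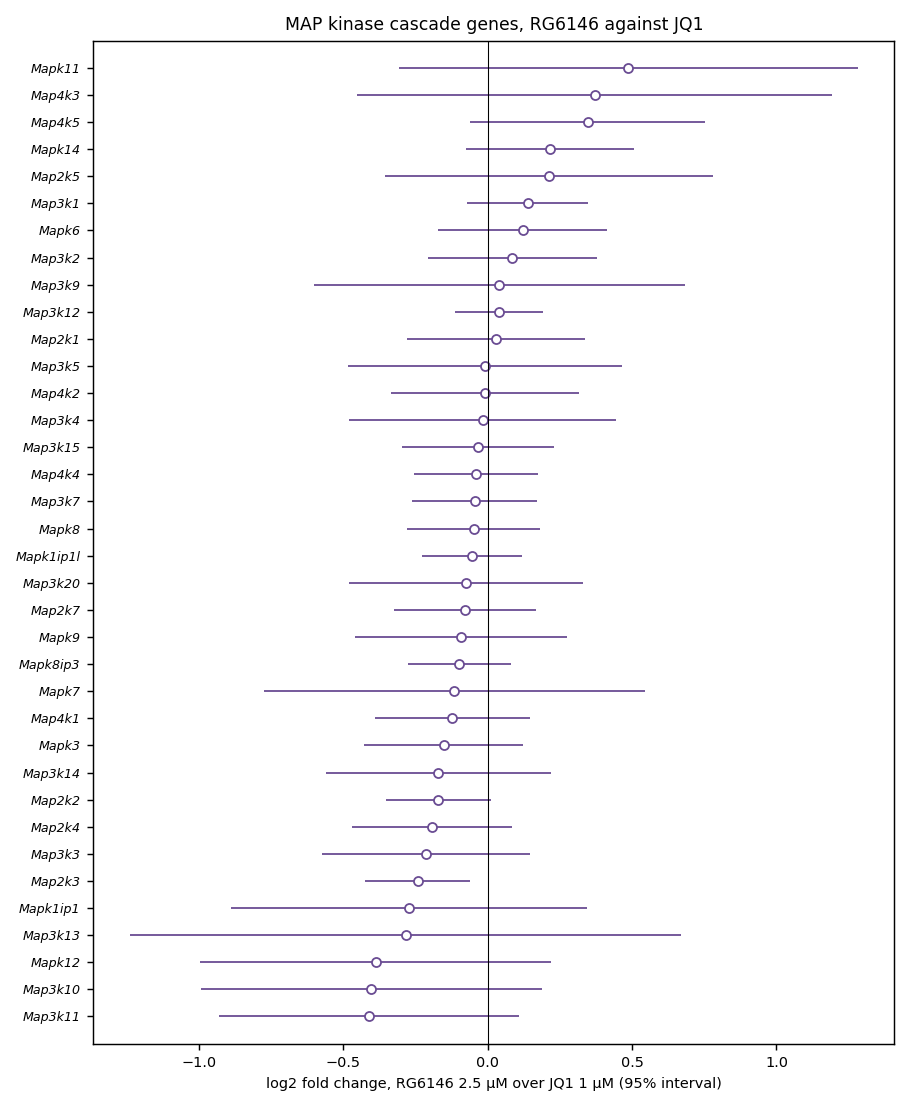
Log2 fold change of 36 of the 37 cascade genes, RG6146 at 2.5 µM over JQ1 at 1 µM (x axis, points with 95% intervals), sorted by the estimate. The interval of Map2k3 (estimate -0.24) is the only one that does not include 0 before adjustment, and the points run from -0.41 for Map3k11 to 0.49 for Mapk11.

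Genes that act above, beside and below the cascades were counted from 7 lists of other pathway genes, 129 different genes of which 95 were tested. The lists were written with earlier results of these data known, so an excess over all tested genes is no independent support. With RG6146, 25 rose and 17 fell (44.2%), beside 26.0% of all tested genes, and with JQ1, 27 rose and 21 fell (50.5%), beside 28.9%. Scaling by library size alone turned the balance, to 19 higher and 27 lower with RG6146 and 20 higher and 28 lower with JQ1. None of the 95 was called in RG6146 against JQ1.

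Of 16 tested activators of RAS and RAF, 4 rose and 5 fell with RG6146 (56.2% called), and 5 rose and 5 fell with JQ1 (62.5%). Over all tested genes 26.0% and 28.9% were called. DESeq2 gave 3 higher and 5 lower with RG6146, and 4 higher and 2 lower with JQ1. ERCC scaling gave 0 higher and 2 lower with either compound, and ERCC scaling with the replicate block 4 higher and 4 lower. Rasgrp1, a guanine nucleotide exchange factor that loads RAS with GTP in lymphocytes, averaged 1.92 ± 1.11 CPM under RG6146, 1.25 ± 0.192 CPM under JQ1 and 14.5 ± 2.71 CPM under DMSO (SD, n = 3 each). It fell by 2.90 ± 0.32 on the log2 scale with RG6146 (adjusted p = 3.4e-06) and by 3.54 ± 0.35 with JQ1 (adjusted p = 7.9e-07). These levels rest on 13, 3 and 9 reads under RG6146, 6, 6 and 4 reads under JQ1 and 84, 40 and 68 reads under DMSO. Rasgrf2, a further RAS exchange factor, fell as well, with log2 fold changes of -2.41 ± 0.51 with RG6146 (adjusted p = 0.0018) and -2.102 ± 0.48 with JQ1 (adjusted p = 0.00334), the JQ1 value being -2.85 without JQ1 replicate 1. It had 2, 8 and 5 reads under RG6146, 12, 4 and 3 reads under JQ1 and 40, 12 and 32 reads under DMSO. Both exchange factors passed the count filter through their DMSO libraries, so their tests are no independent support, and few treated reads leave the size of the falls imprecise. Their falls are part of the counts and shares of this list. Sos2, an exchange factor recruited by receptors, fell by 0.58 ± 0.12 with RG6146 (adjusted p = 0.0014) and by 0.42 ± 0.12 with JQ1 (adjusted p = 0.0128), a JQ1 call lost without JQ1 replicate 1 or DMSO replicate 1 (adjusted p up to 0.0811, between 0.00218 and 0.363 over all alternatives). Shoc2, a scaffold of the phosphatase that activates RAF, rose by 0.53 ± 0.10 with RG6146 (adjusted p = 7.5e-04) and 0.59 ± 0.10 with JQ1 (adjusted p = 2.6e-04).

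Among 11 tested inhibitors of RAS and RAF, none rose and 2 fell with RG6146, while 1 rose and 4 fell with JQ1. That is 18.2% with RG6146, below the 26.0% of all tested genes, and 45.5% with JQ1, above their 28.9%. Dab2ip, a RAS GTPase-activating protein, averaged 25.9 ± 1.55 CPM under RG6146, 23.7 ± 2.15 CPM under JQ1 and 44.6 ± 0.878 CPM under DMSO (SD, n = 3 each), a fall of 0.79 ± 0.11 on the log2 scale with RG6146 (adjusted p = 4.9e-05) and of 0.91 ± 0.11 with JQ1 (adjusted p = 9.9e-06). Rasa2, another RAS GTPase-activating protein, fell by 0.43 ± 0.12 with RG6146 (adjusted p = 0.0145) and by 0.58 ± 0.12 with JQ1 (adjusted p = 0.00175), the RG6146 call being lost without RG6146 replicate 3 or DMSO replicate 1 (adjusted p up to 0.0625, between 0.00403 and 0.396 over all alternatives). Lztr1, an adaptor for RAS degradation, fell with JQ1 (log2 fold change -0.76 ± 0.23, adjusted p = 0.0181), and Pebp1, which binds RAF, rose with JQ1 by 0.21 ± 0.07 (adjusted p = 0.0269). The RG6146 values were -0.58 ± 0.22 for Lztr1 (adjusted p = 0.0651) and 0.09 ± 0.07 for Pebp1 (adjusted p = 0.364). JQ1 replicates 2 and 3 and DMSO replicate 1 each decided the Lztr1 call (adjusted p up to 0.0877, between 0.00605 and 0.0972 over all alternatives), and JQ1 replicates 1 and 3 and DMSO replicates 1 and 2 the Pebp1 call (adjusted p up to 0.0925, between 0.0227 and 0.728).

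MAP kinase phosphatases, which remove the activating phosphates, were represented by 10 tested genes, of which 2 rose and 1 fell with RG6146 and 3 rose and 2 fell with JQ1, beside 26.0% and 28.9% of all tested genes. Ptpn7, a tyrosine phosphatase of ERK and p38 in blood cells, averaged 11.1 ± 1.87 CPM under RG6146, 12.8 ± 2.89 CPM under JQ1 and 45.1 ± 4.33 CPM under DMSO (SD, n = 3 each). It fell by 2.03 ± 0.17 on the log2 scale with RG6146 (adjusted p = 1.1e-07) and by 1.81 ± 0.16 with JQ1 (adjusted p = 2.9e-07). Dusp2, a nuclear phosphatase of MAP kinases, averaged 141 ± 11.3 CPM under RG6146, 164 ± 2.45 CPM under JQ1 and 76.0 ± 8.01 CPM under DMSO, and rose by 0.90 ± 0.09 with RG6146 (adjusted p = 1.3e-06) and 1.11 ± 0.09 with JQ1 (adjusted p = 9.1e-08). Ppm1b rose by 0.37 ± 0.09 with RG6146 (adjusted p = 0.00612) and 0.41 ± 0.09 with JQ1 (adjusted p = 0.00241). Its RG6146 call was lost with library size scaling, ERCC scaling and DESeq2 (adjusted p between 0.00379 and 0.38 over all alternatives). The JQ1 call was lost with ERCC scaling only (between 0.00189 and 0.364). Ppm1d, a phosphatase of p38 and of the DNA damage response, rose by 0.45 ± 0.12 with JQ1 (adjusted p = 0.00681), against 0.13 ± 0.12 with RG6146 (adjusted p = 0.457). That JQ1 call was lost with ERCC scaling and DESeq2 (adjusted p between 0.00574 and 0.318 over all alternatives).

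Of 10 tested kinases that are activated by ERK or p38, 5 rose with RG6146 and 4 with JQ1, and none was called lower. With either compound 3 of the 10 estimates were below 0, and the medians were 0.47 and 0.42 on the log2 scale. Among all tested genes 12.5% rose with RG6146 and 13.6% with JQ1. DESeq2 gave 3 rises with RG6146 and 4 with JQ1, and ERCC scaling 2 with either compound. ERCC scaling with the replicate block gave 5 and 4. Mknk2, a kinase of the translation factor eIF4E, averaged 104 ± 10.1 CPM under RG6146, 116 ± 2.09 CPM under JQ1 and 54.0 ± 2.98 CPM under DMSO (SD, n = 3 each), and rose 1.93-fold with RG6146 (adjusted p = 6.2e-07) and 2.15-fold with JQ1 (adjusted p = 9.1e-08). Its relative Mknk1 rose 1.71-fold with RG6146 (adjusted p = 0.00587) and 1.72-fold with JQ1 (adjusted p = 0.00528). Both Mknk1 calls were lost with ERCC scaling, and the RG6146 call also with DESeq2. Over all alternatives the adjusted p reached 0.0664 with RG6146 and 0.0797 with JQ1. Mapkapk2, the main kinase downstream of p38, rose 1.44-fold with RG6146 (adjusted p = 7.7e-04) and 1.56-fold with JQ1 (adjusted p = 1.1e-04). Rps6ka2, a ribosomal S6 kinase of the ERK branch, had 3.88, 3.54 and 2.50 CPM under RG6146, 3.58, 5.71 and 4.18 CPM under JQ1 and 0.94, 0 and 0.719 CPM under DMSO. Its treated libraries lay above its DMSO libraries (log2 fold change 2.44 ± 0.56 with RG6146, adjusted p = 0.00332, and 2.88 ± 0.53 with JQ1, adjusted p = 5.5e-04), and these values were 3.09 and 3.53 without DMSO replicate 1. The levels rest on 17, 14 and 11 reads under RG6146, 17, 24 and 16 reads under JQ1 and 5, 0 and 3 reads under DMSO. The gene thus passed the count filter through its treated libraries, its test is no independent support, and the size of its fold change is imprecise. Its rise is part of the counts and medians of this list.

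Adaptors, scaffolds and STE20 kinases of the cascades were split, with 4 higher and 4 lower of 27 tested genes with RG6146 and 5 higher and 3 lower with JQ1, shares (29.6% each) close to those of all tested genes. Spag9, which encodes the JNK scaffold JIP4, rose by 0.86 ± 0.09 on the log2 scale with RG6146 (adjusted p = 3.0e-06) and 0.85 ± 0.09 with JQ1 (adjusted p = 3.0e-06). Gadd45b, a stress-induced activator of the MAP3K MEKK4, rose by 1.16 ± 0.20 with RG6146 (adjusted p = 3.8e-04) and 1.13 ± 0.20 with JQ1 (adjusted p = 4.3e-04). Nfkb1, whose p105 product binds the TPL2 kinase, fell by 0.94 ± 0.15 with RG6146 (adjusted p = 1.2e-04) and by 0.94 ± 0.15 with JQ1 (adjusted p = 9.7e-05). Traf5, an adaptor of TNF receptors, fell by 0.70 ± 0.14 with RG6146 (adjusted p = 0.00149) and by 0.46 ± 0.14 with JQ1 (adjusted p = 0.0208), the JQ1 call being lost without JQ1 replicate 2, JQ1 replicate 3 or DMSO replicate 1 (adjusted p up to 0.142, between 0.00416 and 0.325 over all alternatives).

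Of 14 transcripts known to respond to ERK, 4 were abundant enough to test. With RG6146 2 were higher and 1 lower, and with JQ1 1 was higher and 1 lower. Over all tested genes 26.0% and 28.9% were called, and 4 genes are too few to set against these shares. DESeq2 called 0 higher and 1 lower with RG6146, and 1 higher and 1 lower with JQ1. Ccnd1, which encodes cyclin D1, averaged 161 ± 9.07 CPM under RG6146, 167 ± 11.9 CPM under JQ1 and 244 ± 12.3 CPM under DMSO (SD, n = 3 each), and fell by 0.60 ± 0.08 on the log2 scale with RG6146 (adjusted p = 2.5e-05) and by 0.55 ± 0.08 with JQ1 (adjusted p = 5.7e-05). Etv5, an ETS factor, rose by 0.90 ± 0.29 with RG6146 (adjusted p = 0.0289) and 1.20 ± 0.28 with JQ1 (adjusted p = 0.00393). Egr1 rose by 1.21 ± 0.35 with RG6146 (adjusted p = 0.0169), against 0.49 ± 0.38 with JQ1 (adjusted p = 0.364). The RG6146 call of Etv5 was lost without RG6146 replicate 2 or 3 or DMSO replicate 1 or 2 (adjusted p up to 0.132, between 0.00611 and 0.132 over all alternatives), and that of Egr1 without RG6146 replicate 2 or 3 or DMSO replicate 3 (up to 0.0702, between 0.00326 and 0.0702). Dusp6, the ERK phosphatase, was called with neither compound at 1.05 to 7.14 CPM (log2 fold change -0.50 ± 0.58 with RG6146 and -0.07 ± 0.56 with JQ1). Single libraries moved these estimates, to between -1.10 without RG6146 replicate 1 and -0.16 without RG6146 replicate 2, and to between -0.83 without JQ1 replicate 2 and 0.35 without JQ1 replicate 3.

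Of 18 tested transcription factors that MAP kinases phosphorylate, 8 rose and 4 fell with RG6146 (66.7% called, against 26.0% of all tested genes) and 8 rose and 6 fell with JQ1 (77.8%, against 28.9%). This list too was written with earlier results of these data known, which limits what the excess can show. Jund averaged 212 ± 36.5 CPM under RG6146, 236 ± 7.26 CPM under JQ1 and 73.8 ± 2.53 CPM under DMSO (SD, n = 3 each), and rose 2.87-fold with RG6146 (adjusted p = 8.2e-09) and 3.20-fold with JQ1 (adjusted p = 2.0e-09). Jun, the classical target of JNK, rose 2.65-fold with RG6146 (adjusted p = 4.3e-07) and 2.997-fold with JQ1 (adjusted p = 9.1e-08), and Junb 1.88-fold (adjusted p = 1.4e-05) and 2.09-fold (adjusted p = 2.4e-06). Mef2c, a target of p38 and ERK5, averaged 59.1 ± 2.96 CPM under RG6146, 56.5 ± 4.20 CPM under JQ1 and 141 ± 8.67 CPM under DMSO, and fell 2.38-fold with RG6146 (adjusted p = 2.1e-08) and 2.49-fold with JQ1 (adjusted p = 1.0e-08).

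**Figure D5:**
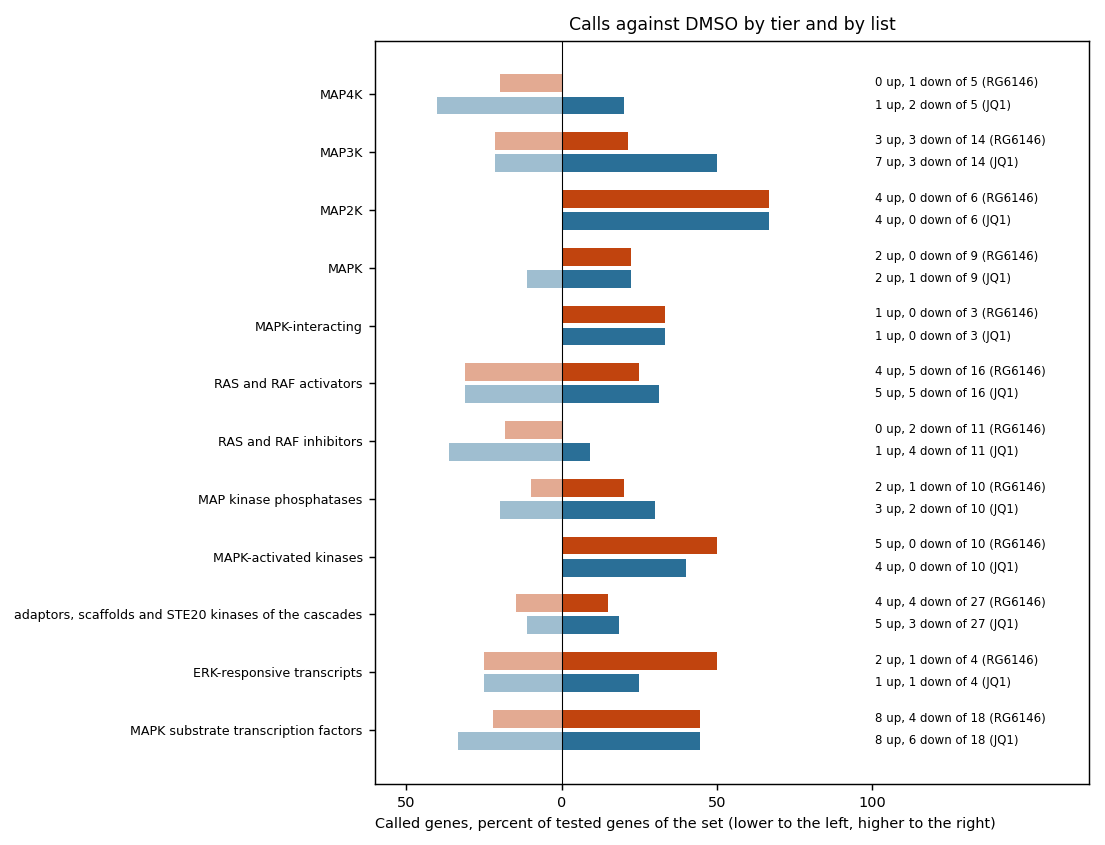
Share of tested genes (x axis, percent) called higher or lower than DMSO in each tier of the cascade and in each list of other pathway genes (lower to the left of 0, higher to the right), with RG6146 in orange above JQ1 in blue and the counts at the right. The MAP2K and MAPK-activated kinase bars have no part left of 0. The bars include Map3k13 and Rps6ka2, which passed the count filter through their treated libraries, and Rasgrp1 and Rasgrf2, which passed through their DMSO libraries.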

How the data were processed

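Poly(A) tags of RNA were sequenced from 9 cultures with the QuantSeq 3′ kit on a NextSeq 500 (75-base single-end reads, 500 ng of RNA), per the labels' protocols. The deposited values are raw read counts per gene for 43629 genes and 92 ERCC spike-ins. The submitters' processing notes name the mm10 build and, among their tools, HISAT2 2.1.0, featureCounts and cutadapt 1.7. The strand setting of the counting is not given in the sources used here. Of the gene IDs, 42548 received a symbol from GENCODE M21 and 1081 did not.

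From these counts, genes were kept by filterByExpr of edgeR 4.0.16 (minimum count 10, R 4.3.3), which left 11002, and all 9 libraries were fitted together with TMM scaling and edgeR's quasi-likelihood test with robust moderation. ERCC rows stayed out of library sizes. P-values were Benjamini-Hochberg adjusted over all tested genes, and a gene was called at an adjusted p below 0.05. The ± of a log2 fold change is its standard error. Library totals of 3410161 to 5031717 limit the precision of low genes. The procedure was tested on simulated data. Marker sums were compared by two-sided exact permutation tests.

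The members and the lists of other pathway genes were chosen with earlier results of these data known. Named were all called members, all MAPK and MAP2K genes, and up to 4 genes of each list with the smallest p. The values of 1 gene of the MAPK tier are not reported here, and it stays in the counts. Values in every library are given for called members past 1.5-fold and for the main ERK, JNK, p38 and MEK genes, and for Map3k12 and Rps6ka2 beside the rule. Alternatives were other scalings (library size, RLE, ERCC), DESeq2 1.42.0, other filters, a replicate block (also with ERCC scaling), non-robust moderation, a fit of 2 groups only, and each library left out. Leaving out DMSO replicate 2 and JQ1 replicate 2 together was added after seeing the data. Promoter windows are RefSeq's, on GRCm38.p6.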

Additional observations from a re-analysis of the deposited data

How the results depend on the processing

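Of 85 named genes and comparisons with a call, 39 kept it under every alternative that gave the gene an adjusted p, and no call changed direction. Scaling by ERCC spike-ins left 5 cascade genes called with RG6146 and 9 with JQ1, 19 of the other pathway genes with each compound, and 1082 and 1196 of all genes with RG6146 and JQ1. With ERCC scaling and the replicate block these counts were 13 and 17, 42 and 42, and 2604 and 2829. The ERCC share of reads followed the replicate number in every group, at 1.35%, 1.37% and 1.51% in replicate 1 under RG6146, JQ1 and DMSO, 1.17%, 1.22% and 1.19% in replicate 2, and 0.972%, 0.958% and 1.13% in replicate 3. DESeq2 called 11 cascade genes and 1902 of all genes with RG6146, and 10 cascade genes and 2147 of all genes with JQ1. With 1 library left out, 9 to 15 cascade genes were called with RG6146 and 13 to 21 with JQ1, 37 to 46 and 43 to 51 other pathway genes, and 2239 to 2970 and 2492 to 3248 of all genes. In RG6146 against JQ1, where 1 gene of all was called, ERCC scaling gave 4 and no filter on low counts 17. A mean of at least 10 CPM, the replicate block, non-robust moderation, a fit of only these 2 groups and the repeat without DMSO replicate 2 and JQ1 replicate 2 gave 0 each, and leaving out 1 library gave 0 to 2. The cause of the shifts without ERCC scaling was not tested. By gene levels the replicate number did not pair the libraries (correlations of deviations from the group means between -0.063 and 0.10). With the replicate number as a block, 13 cascade genes were called with RG6146, 18 with JQ1 and 0 between the compounds, and 44 and 46 of the other pathway genes with RG6146 and JQ1. Counts of about 10 reads or fewer, as for Map3k13, limit what these libraries can show.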
